A study of Mus musculus with 23 samples.

Results

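The genes described here are 35 nuclear genes for the last steps of mitochondrial respiration: 9 subunits of complex III, the electron carrier cytochrome c (Cycs), 10 subunits of complex IV and 15 subunits of ATP synthase. They were taken by symbol as subunits of these enzymes. No measured value enters that rule, but the list was proposed with earlier results of these data known, so it is not independent of them. All 35 were found among the 55416 gene rows of the count tables. RNA was isolated from tissue scraped off the proximal small intestine, 1 mouse per library, and the labels give all animals as female C57BL/6JRccHsd. Feeding began at weaning, at 21 days of age, and lasted 3 weeks. The group GAL42 (n = 12, called galactose below) received 16 energy percent galactose plus 16 energy percent glucose, and the group GLU42 (n = 11, called glucose) received 32 energy percent glucose. Both diets were otherwise the same, neither group was free of glucose, and tissue was taken at 42 days of age. A scraping holds all layers that come off with the epithelium, so fewer cells of a type and less RNA per cell cannot be told apart in these bulk libraries.

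Complex III takes electrons from ubiquinol and hands them to cytochrome c, a small soluble protein of the space between the mitochondrial membranes. Complex IV, cytochrome c oxidase, passes these electrons to oxygen. Both complexes pump protons, and ATP synthase lets the protons flow back through a rotating ring of c subunits while its catalytic head makes ATP. Each of the 3 enzymes also contains subunits encoded in mitochondrial DNA (in complex III only cytochrome b), which are not among the 35 genes. Absorptive enterocytes are rich in mitochondria and use much ATP to drive the sodium gradient that powers uptake of glucose and galactose.

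The 23 libraries held between 15382583 and 17174721 reads assigned to genes, and no member had fewer than 674 reads in any library. The library labelled GAL42 replicate 12 goes against its label as female: it had 4 reads of Xist, the RNA of the inactive X chromosome, against 778 to 2351 in the other 22 libraries, and 225 reads over 4 Y-linked genes against at most 1. A different library, GAL42 replicate 7, stood apart in the member genes themselves, as described below. The counts of calls and the medians of the complexes are therefore also given without these libraries. Enterocyte markers summed to between 55300 and 77600 CPM (read counts scaled to a common library size) on galactose and between 51200 and 75400 CPM on glucose, and the ileal markers Fabp6 and Slc10a2 together stayed at 1.63 CPM or less.

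All 35 genes had a higher estimated level on the galactose diet, but the differences were small and none passed the test across all genes. Log2 differences (galactose minus glucose) ranged from 0.10 to 0.39 with a median of 0.22, where 6632 of the 13405 genes tested (49.5%) had a positive difference. By edgeR's quasi-likelihood test with Benjamini-Hochberg adjustment over 13405 genes, 0 of 35 members and 0.0% of all genes reached an adjusted p under 0.05. The smallest adjusted p among the members was 0.135, for Cox5b, and no gene of all those tested had a smaller one. At an unadjusted p under 0.05, 32 of 35 members (91.4%) were higher on galactose, against 8.63% of all genes tested, and 0 were lower, against 5.72% of all genes. The 3 members outside this count were Cycs, Cox8a and Atp5g2.

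**Figure D1:**
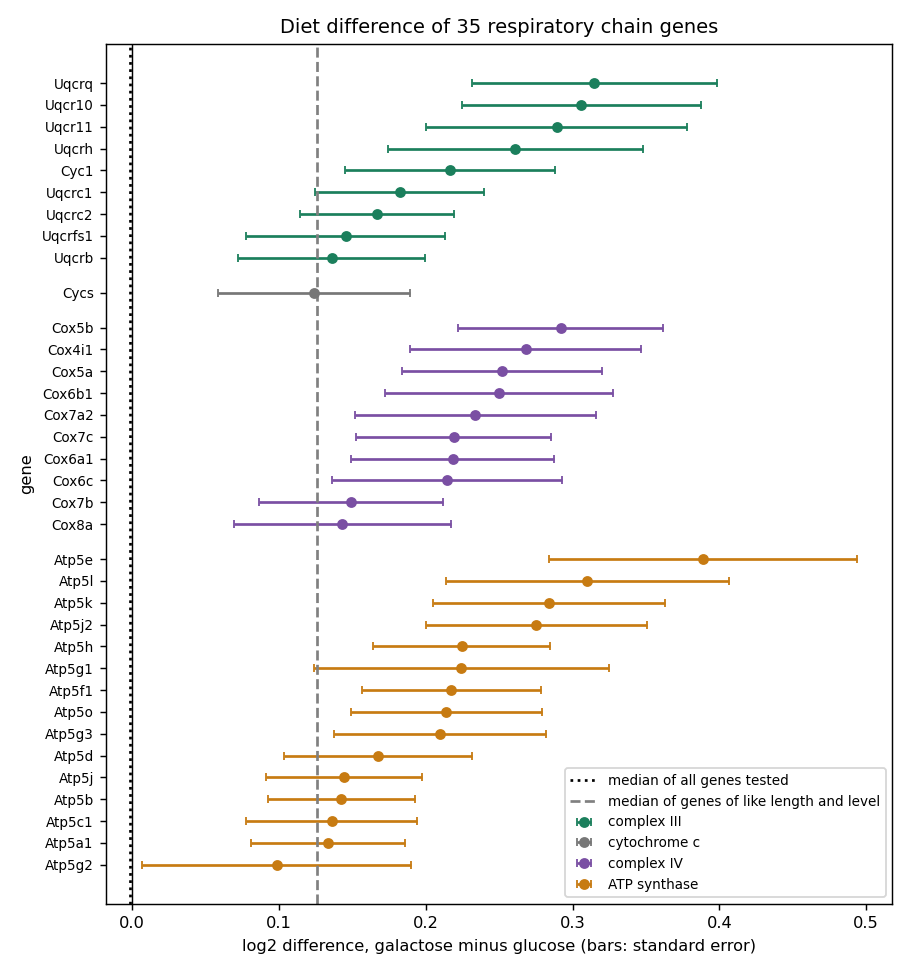
Log2 difference (galactose minus glucose, horizontal axis, with its standard error as a bar) of each of the 35 genes, grouped by complex. All 35 points lie to the right of 0, from 0.10 for Atp5g2 to 0.39 for Atp5e. The dotted line is the median of all genes tested, next to 0. The dashed line, at 0.13, is that of 167 other genes near the members' median length, at or above the level of the lowest member.

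The number of calls depended on the tool and on single libraries. DESeq2 called 10 members higher on galactose (0.798% of all genes were called higher), limma-voom 0 (0.0%), and limma-voom with library quality weights 12 (1.06%). Without GAL42 replicate 7, edgeR called 18 members (1.31% of all genes called higher). Without GAL42 replicate 12 it called 0 (0.0%), and without both it called 22 (1.92%). GAL42 replicate 7 was singled out for its low member values, so results without it are not independent of those values. Without GLU42 replicate 9, which gave the highest glucose value of 25 members, edgeR called 0 members and 0 genes of all tested. The 9 genes called by DESeq2, by the weighted fit and without replicate 7 were Uqcrq and Uqcr10 of complex III, Cox4i1, Cox5a and Cox5b of complex IV, and Atp5e, Atp5f1, Atp5h and Atp5j2 of ATP synthase. A further 17 members were called by none of these 3 fits. The fits share the same counts and are not separate evidence. The weighted fit also gave GAL42 replicate 7 the lowest weight of the 23 libraries, 0.587. Without both libraries the median log2 differences were 0.26 for complex III, 0.28 for complex IV and 0.26 for ATP synthase, against 0.22, 0.23 and 0.21 with all libraries.

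Complex III was higher on galactose in the estimate of each of its 9 subunits, with a median log2 difference of 0.22, and all 9 had an unadjusted p under 0.05. Summed over the subunits, the level ran from 2260 to 3286 CPM with a median of 2944 on galactose, and from 2298 to 2856 CPM with a median of 2362 on glucose. In 8 of 12 galactose libraries the sum exceeded that of every glucose library, while the lowest galactose library lay below every glucose library.

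Among the catalytic subunits of complex III, Cyc1, the cytochrome c1 that reduces cytochrome c, ran from 303 to 501 CPM on galactose (median 405) and from 304 to 406 CPM on glucose (median 334), a log2 difference of 0.22 ± 0.07 (SE; edgeR adjusted p = 0.191). Uqcrfs1, the Rieske iron-sulfur protein, ran from 213 to 323 CPM on galactose (median 272) and from 222 to 293 CPM on glucose (median 233), a difference of 0.15 ± 0.07 (edgeR adjusted p = 0.33). In both genes the glucose values fell within the span of the galactose values, and the galactose libraries were the more widely spread. The core subunits carry no redox centre. Uqcrc1 had 637 to 889 CPM on galactose (median 745) and 608 to 738 CPM on glucose (median 649), a difference of 0.18 ± 0.06 (edgeR adjusted p = 0.172). Uqcrc2 had 314 to 398 CPM (median 359) and 271 to 362 CPM (median 314), a difference of 0.17 ± 0.05 (edgeR adjusted p = 0.169), and all 12 galactose libraries lay above its glucose median.

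The small subunits held both the largest and the smallest difference of the complex. Uqcrq, which sits beside cytochrome b in the membrane, ran from 175 to 310 CPM on galactose (median 272) and from 183 to 256 CPM on glucose (median 198), a log2 difference of 0.31 ± 0.08 (edgeR adjusted p = 0.138). Uqcrb, another small subunit, ran from 190 to 272 CPM (median 223) and from 173 to 235 CPM (median 207), a difference of 0.14 ± 0.06 (edgeR adjusted p = 0.33). Uqcr10, Uqcr11 and Uqcrh lay between them at 0.31, 0.29 and 0.26. Except in Uqcrh, where replicate 12 was lowest, GAL42 replicate 7 gave the lowest galactose value of each of the 9 genes.

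The mobile carrier had a smaller difference than most of the subunits around it. Cycs, the somatic cytochrome c gene, ran from 163 to 223 CPM on galactose (median 188) and from 148 to 204 CPM on glucose (median 178), a log2 difference of 0.12 ± 0.07 (edgeR p = 0.0688, adjusted p = 0.387). Its groups overlapped over most of their span, and 9 of 12 galactose libraries lay above the glucose median.

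Complex IV had the highest median log2 difference of the 3 enzymes, 0.23 over 10 subunits, although differences between the complexes were not tested. Of the 10, 9 had an unadjusted p under 0.05. The summed level ran from 3025 to 4657 CPM on galactose (median 4309) and from 3239 to 4140 CPM on glucose (median 3420), and 7 of 12 galactose libraries exceeded every glucose library. As in complex III, the lowest sum of all belonged to a galactose library.

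Cox4i1, the ubiquitous form of the subunit through which ATP inhibits the enzyme, ran from 404 to 675 CPM on galactose (median 602) and from 395 to 574 CPM on glucose (median 478), a log2 difference of 0.27 ± 0.08 (edgeR adjusted p = 0.151). Cox5a, on the matrix side, ran from 231 to 373 CPM (median 338) and from 244 to 320 CPM (median 264), a difference of 0.25 ± 0.07 (edgeR adjusted p = 0.138). Cox5b, the zinc-binding matrix subunit, showed the largest difference of the complex: 322 to 476 CPM on galactose (median 450) and 304 to 422 CPM on glucose (median 334), or 0.29 ± 0.07 (edgeR p = 0.00028, adjusted p = 0.135). In these 3 genes the galactose median exceeded every glucose library, while the lowest galactose library fell among or below the glucose ones.

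Cox6a1, the non-muscle form of a membrane subunit, was the most abundant of the complex in CPM, with 664 to 1060 CPM on galactose (median 940) and 717 to 916 CPM on glucose (median 789), a log2 difference of 0.22 ± 0.07 (edgeR adjusted p = 0.171). Cox6b1, which faces the intermembrane space, had 321 to 545 CPM (median 471) and 317 to 460 CPM (median 373), a difference of 0.25 ± 0.08 (edgeR adjusted p = 0.165). Both had 10 of 12 galactose libraries above the glucose median. Cox7a2, at 151 to 240 CPM (median 214) and 141 to 220 CPM (median 173), differed by 0.23 ± 0.08 (edgeR adjusted p = 0.205). Cox7c, at 150 to 227 CPM (median 192) and 135 to 181 CPM (median 170), differed by 0.22 ± 0.07 (edgeR adjusted p = 0.162). Cox8a had the smallest difference of the complex. Its galactose libraries ran from 359 to 561 CPM (median 518) and its glucose libraries from 392 to 569 CPM (median 434), so that the single highest value was on glucose, and the difference was 0.14 ± 0.07 (edgeR p = 0.0633, adjusted p = 0.378). Cox6c and Cox7b, the remaining subunits, differed by 0.21 and 0.15.

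ATP synthase had a median log2 difference of 0.21 over 15 subunits, 14 of them with an unadjusted p under 0.05. The summed level ran from 6374 to 8608 CPM on galactose (median 7723) and from 6251 to 7630 CPM on glucose (median 6613), and 8 of 12 galactose libraries exceeded every glucose library. The alpha and beta chains of the catalytic head, which bind the nucleotides, made up more than any other subunits of this sum.

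**Figure D2:**
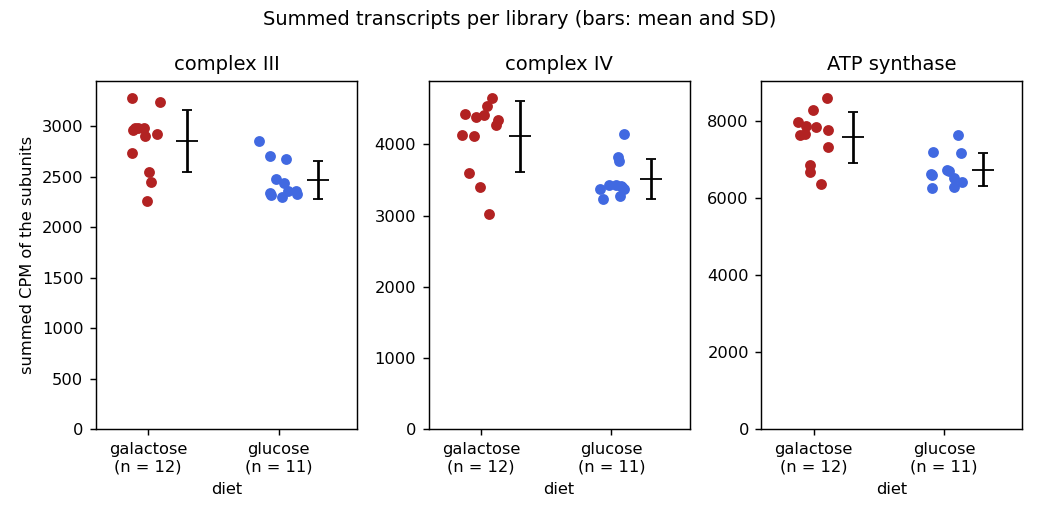
Summed level of the subunits of complex III, complex IV and ATP synthase in CPM (vertical axes starting at 0), 1 point per library, with the mean and SD of each diet. Means were 2857 ± 306.7 against 2472 ± 190.3 CPM for complex III, 4111 ± 503.0 against 3516 ± 276.5 CPM for complex IV and 7575 ± 657.3 against 6741 ± 427.4 CPM for ATP synthase (galactose, n = 12, against glucose, n = 11), and the groups overlap in each panel.

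In the head of ATP synthase, Atp5a1 (alpha) ran from 1520 to 1950 CPM on galactose (median 1690) and from 1400 to 1680 CPM on glucose (median 1580), a log2 difference of 0.13 ± 0.05 (edgeR adjusted p = 0.244). Atp5b (beta) ran from 1980 to 2480 CPM (median 2230) and from 1830 to 2200 CPM (median 1970), a difference of 0.14 ± 0.05 (edgeR adjusted p = 0.205). All 12 galactose libraries exceeded the glucose median of Atp5b, but only 8 exceeded that of Atp5a1, the fewest of any member. In the rotor stalk, Atp5c1 (gamma), the shaft that turns inside the head, ran from 487 to 630 CPM (median 593) and from 458 to 629 CPM (median 516), a difference of 0.14 ± 0.06 (edgeR adjusted p = 0.288). Atp5d (delta) ran from 590 to 907 CPM (median 757) and from 611 to 723 CPM (median 680), a difference of 0.17 ± 0.06 (edgeR adjusted p = 0.235). The third stalk subunit, Atp5e (epsilon), had the largest difference of all 35 genes: 64.5 to 132 CPM on galactose (median 100) and 59.4 to 104 CPM on glucose (median 71.1), or 0.39 ± 0.10 (edgeR adjusted p = 0.138). Its groups still overlapped, and 11 of 12 galactose libraries lay above the glucose median.

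The peripheral stalk holds the head still against the turning rotor. Atp5o, the subunit that ties the stalk to the top of the head, ran from 82.6 to 134 CPM on galactose (median 109) and from 82.7 to 104 CPM on glucose (median 96.3), a log2 difference of 0.21 ± 0.07 (edgeR adjusted p = 0.162). Its symbol belongs to a second identifier as well, which held 0 reads in all 23 libraries. Atp5h (d), a stalk subunit, ran from 195 to 276 CPM (median 241) and from 183 to 241 CPM (median 201), a difference of 0.22 ± 0.06 (edgeR adjusted p = 0.138). Atp5j (F6, a coupling factor of the stalk) ran from 167 to 213 CPM (median 196) and from 157 to 202 CPM (median 173), a difference of 0.14 ± 0.05 (edgeR adjusted p = 0.221). In each the highest value was on galactose and the groups overlapped. The stalk subunit Atp5f1 (b) differed by 0.22, and the membrane subunits Atp5j2, Atp5k and Atp5l, of which Atp5k and Atp5l take part in pairing ATP synthases into dimers, by 0.28, 0.28 and 0.31.

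The c subunit of the ring is made from 3 genes that encode the same mature protein behind different targeting peptides. Atp5g3 ran from 411 to 656 CPM on galactose (median 589) and from 439 to 603 CPM on glucose (median 488), a log2 difference of 0.21 ± 0.07 (edgeR adjusted p = 0.205). Atp5g1 ran from 188 to 322 CPM (median 283) and from 184 to 318 CPM (median 208), a difference of 0.22 ± 0.10 (edgeR adjusted p = 0.313). Atp5g2 ran from 41.2 to 70.7 CPM (median 61.2) and from 43.2 to 71.7 CPM (median 57.1), and its difference of 0.10 ± 0.09 (edgeR p = 0.292, adjusted p = 0.651) was the smallest of all 35 genes. Its highest library was on glucose, and the groups covered nearly the same span. Scaled per kilobase of the longest annotated transcript, Atp5g3 supplied 83.1% ± 0.991 (SD, n = 12) of c subunit transcripts on galactose and 82.6% ± 1.58 (n = 11) on glucose, so the share differed by less than the spread between libraries. This share depends on the transcript lengths used, since the longest model of Atp5g1 has 4715 bases; of the plain CPM, Atp5g3 held 64.0% ± 1.81 on galactose and 64.0% ± 2.53 on glucose. The longest stretch that any pair of these genes shares in its coding transcripts has 21 bases (Atp5g1 and Atp5g2).

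Levels of different genes can be compared only per length, and here they are given as CPM per kilobase of the longest coding transcript. Cox6a1 stood highest with 1612 ± 209.3 on galactose and 1386 ± 108.7 on glucose (mean ± SD), followed by Atp5b with 1140 ± 79.7 and 1033 ± 59.7, and by Cox8a with 901 ± 119 and 816 ± 89.6. These 3 genes held the same ranks when the longest transcript of any kind was used. Atp5g3 (798 and 690.5) and Cox4i1 (754 and 626) came next and lay within their spread of each other. At the low end were Atp5g2 (80.1 and 74.8), Cycs (60.5 and 55.6) and Atp5g1 (56.3 and 48.2), of which Cycs and Atp5g1 lay within their spread of each other. Subunits that the complexes hold in equal number thus differed widely per kilobase, with Atp5o at 132 and Atp5d at 535 on galactose, and such a level depends on which annotated transcript is taken as the length.

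**Figure D3:**
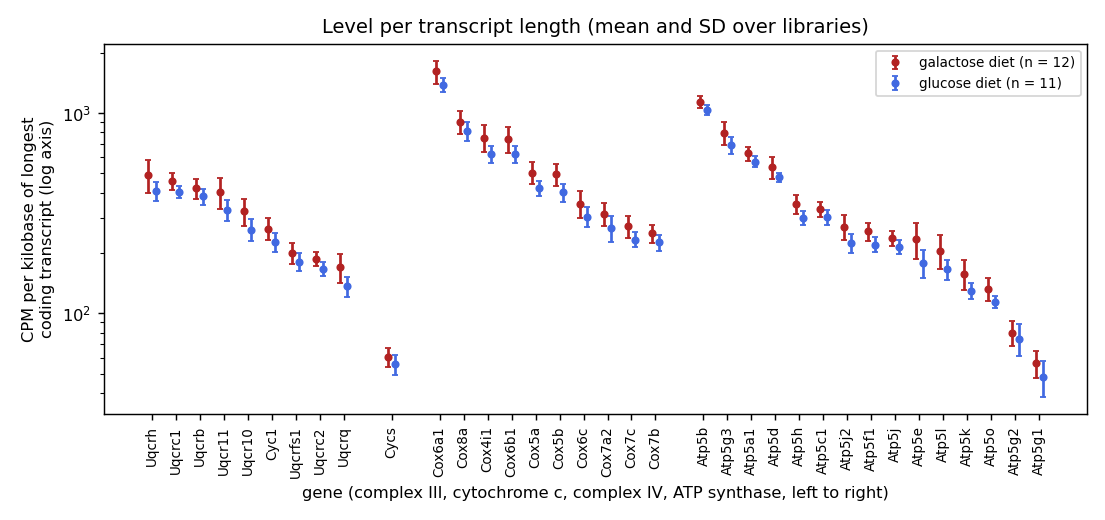
Level of the 35 genes in CPM per kilobase of the longest coding transcript (log axis), mean and SD per diet, ordered by level within each complex. Cox6a1 lies at the top with 1612 on galactose and 1386 on glucose, and Atp5g1 at the bottom with 56.3 and 48.2. The place of Atp5g1 depends on its longest coding model of 4715 bases.

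Members were high or low together within a library. The mean log2 level of the 35 genes, relative to its mean over all libraries, ran from -0.281 to 0.295 on galactose (median 0.168) and from -0.231 to 0.118 on glucose (median -0.159). In 8 of 12 galactose libraries more than 30 members lay above their 23-library median, whereas in 8 of 11 glucose libraries at most 4 did. GAL42 replicate 7 ran the other way, with 0 of 35 members above that median, and it gave the lowest galactose value of 29 members. GAL42 replicate 4 had 1 of 35 above it. On glucose, GLU42 replicate 9 had 32 of 35 above it and gave the highest glucose value of 25 members. The groups overlapped in all 35 genes, although 28 genes had at least 10 of 12 galactose libraries above the glucose median. Shares of all genes tested for these 2 counts are not given here, so neither sets the members apart. Other genes of like length and level, described next, also ran higher on galactose. Their relative mean log2 level had a median of 0.103 on galactose and -0.088 on glucose.

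Member transcripts are short, and other short genes also had mostly positive differences in these libraries. The median longest transcript was 1001 bases for members and 3228 bases for the genes tested, and 33 of 35 members were shorter than that overall median. The comparison class was made of 167 other tested genes of 801 to 1251 bases, a window around the members' median length. Their mean was at least 53.5 CPM, the level of the lowest member. Members ran from 510 to 6310 bases, so the window matches their median length and not each member. Of these 167 genes, 144 were higher on galactose with a median log2 difference of 0.13, and 64 (38.3%) had an unadjusted p under 0.05, against the 91.4% of members given above. With lengths taken from coding transcripts the class had 113 genes, a median of 0.14 and 41.6% with such a p. Without genes that carry respiratory or ribosomal symbols it had 125 genes, a median of 0.11 and 36.8%. The members' median of 0.22 was above that of the like-length genes in each of these versions. Classes were also made around the median length and lowest level of each complex. Complex III had 163 such genes (median 0.085), complex IV 25 (0.08) and ATP synthase 474 (0.071). The windows were 1090 to 1704, 590 to 921 and 1358 to 2121 bases. They rest on the longest transcript of any kind. In ATP synthase this can far exceed the longest coding one, as in Atp5e (1697 against 421 bases) and Atp5l (6310 against 544). Its class may therefore hold genes longer than its coding transcripts, and classes by coding length are not given here for single complexes. Of these, 42, 3 and 116 were higher on galactose at an unadjusted p under 0.05. The complexes' own medians of 0.22, 0.23 and 0.21 were above those of their classes. None of these differences between lists has a test here.

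**Figure D4:**
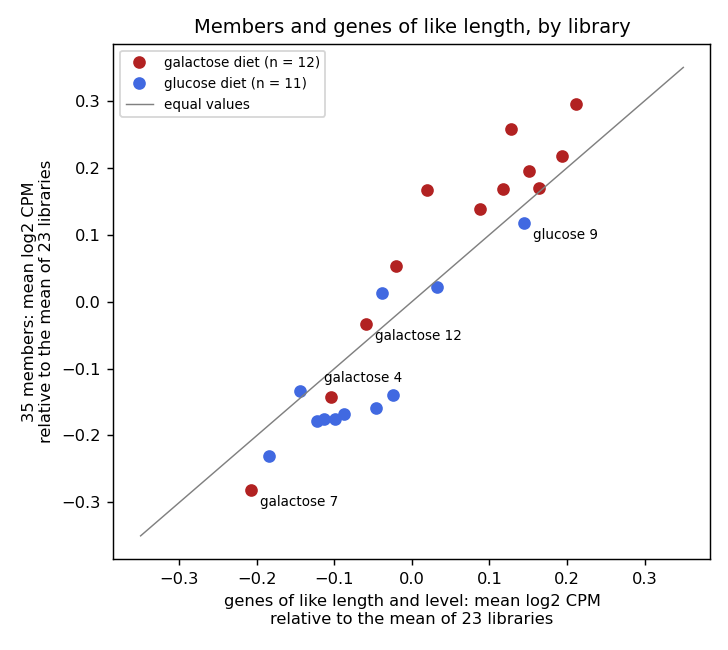
Mean log2 level of the 35 members (vertical axis) against that of 167 genes of like length and level (horizontal axis), each relative to its mean over the 23 libraries, 1 point per library. Both measures run together over the libraries, galactose libraries mostly lie above the line of equality and glucose libraries below it, and galactose 7 lies lowest of all, at the lower left.

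Library by library, the members lay above the like-length genes in 10 of 12 galactose libraries (difference from -0.074 to 0.147, median 0.047) and in 2 of 11 glucose libraries (from -0.115 to 0.051, median -0.055). A slope of log2 level on log2 transcript length was also taken in each library, where a negative slope means relatively more reads from short genes. It ran from -0.1233 to 0.0795 on galactose and from -0.06 to 0.0939 on glucose. Most galactose libraries had a negative slope and most glucose libraries a positive one. GAL42 replicate 7 had the highest slope of the galactose group, 0.0795, and GLU42 replicate 9 the lowest of the glucose group, -0.06. With this slope as a covariate, the median difference of the members was 0.07, 32 of 35 were positive, and 1 (Cox5b) had an unadjusted p under 0.05, which is 2.86% of members against 3.8% of all genes. By complex the medians were then 0.07 for complex III, 0.08 for complex IV and 0.06 for ATP synthase. Since the slope comes from the same counts and goes with diet, the fit with it cannot tell diet and slope apart. With 6 surrogate variables as covariates the members' median was 0.06 and 32 of 35 were positive. In that fit 0 members passed adjustment, and 0.00746% of all genes were called higher. An unadjusted p under 0.05 was reached by 9 members. The share of all genes at that unadjusted p in this fit is not given here, so the 9 cannot be set against it. The part of the length slope in the diet difference was not tested.

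Other parts of the respiratory chain encoded in the nucleus had differences of like size. Of the 36 nuclear subunits of complex I, the NADH dehydrogenase, 36 had a positive log2 difference (median 0.21) and 28 an unadjusted p under 0.05. The smallest p values belonged to Ndufa11 (0.27 ± 0.06, edgeR adjusted p = 0.135) and Ndufv1 (0.24 ± 0.06, edgeR adjusted p = 0.138). Complex II, which feeds electrons from succinate, had 4 of 4 positive (median 0.19) and 3 with such a p, led by Sdhb (0.24 ± 0.06) and Sdhd (0.26 ± 0.07). Among the mitochondrial carriers that supply phosphate and exchange ATP, with the porins and mitochondrial creatine kinase, 7 of 7 were positive (median 0.11) and 3 had such a p, led by Slc25a3 (0.13 ± 0.05) and Ckmt1 (0.14 ± 0.06). None of these genes reached an adjusted p under 0.05 by edgeR.

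The subunits of the same 3 enzymes that are encoded in mitochondrial DNA gave a different picture. Of 6 such genes 5 could be tested, 3 were positive, the median log2 difference was 0.01, and 0 had an unadjusted p under 0.05. mt-Cytb, the cytochrome b of complex III, ran from 6540 to 11800 CPM on galactose (median 8300) and from 6960 to 13600 CPM on glucose (median 8610), a difference of -0.09 ± 0.11 (edgeR adjusted p = 0.742). mt-Co1, the catalytic core of complex IV, had medians of 19700 and 18500 CPM. mt-Co2 had only 5.17 to 12.6 CPM on galactose and 4.64 to 12.8 CPM on glucose, a difference of 0.11 ± 0.16 (edgeR adjusted p = 0.786), and mt-Co3 and mt-Atp6 also stayed at 13.2 CPM or less. Reads with several alignments, which were counted for no gene, made up 7.48% to 10.4% of each library, and their part in these low values was not tested. Whether nuclear and mitochondrial subunits differ from each other in their response was not tested.

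Assembly factors, which build the complexes, had medians below those of the subunits, a contrast that was not tested. The lists were not matched for transcript length, which ran from 649 to 4798 bases in the assembly genes tested. For complex III 5 of 6 were positive (median 0.12) and 2 had an unadjusted p under 0.05, Uqcc2 (0.29 ± 0.11) and Uqcc3 (0.23 ± 0.10). For complex IV 23 of 23 tested were positive (median 0.12) and 9 had such a p, with the smallest p for Cox14 (0.23 ± 0.06) and Higd1a (0.23 ± 0.08). For ATP synthase 6 of 6 assembly and accessory genes were positive (median 0.07) and 2 had such a p, Usmg5, a small membrane subunit (0.25 ± 0.09), and Atpif1, which blocks ATP hydrolysis (0.18 ± 0.09).

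**Figure D5:**
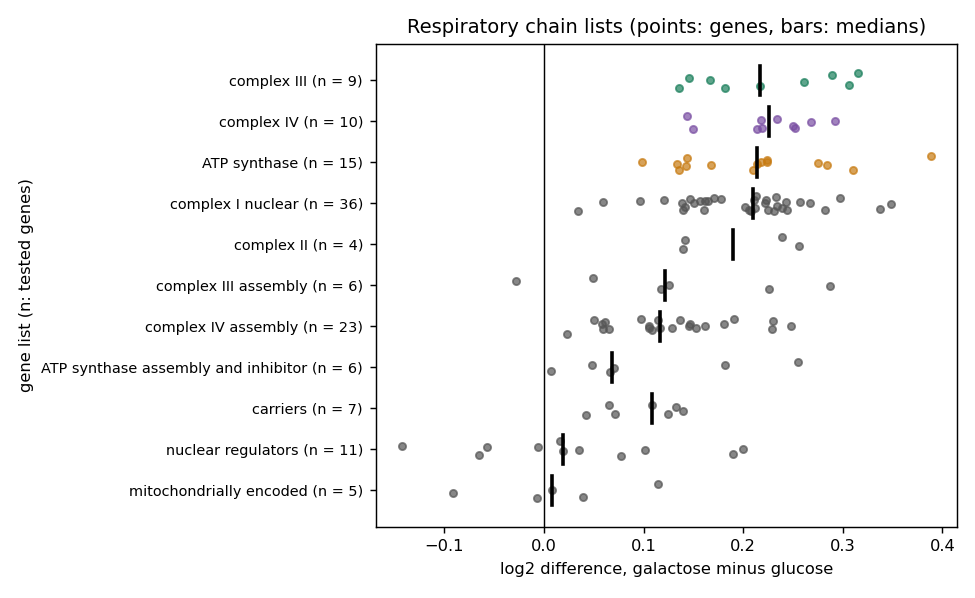
Log2 differences (galactose minus glucose, horizontal axis) of the tested genes of each list (vertical axis), 1 point per gene with the median as a bar. The nuclear subunits of complexes I to IV and ATP synthase have medians from 0.19 to 0.23, assembly lists from 0.07 to 0.12, and mitochondrially encoded subunits 0.01.

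Regulators of respiratory genes gave differences in both directions. The list joined factors and coactivators that act on nuclear genes with Tfam, Tfb1m, Tfb2m and Polrmt, which serve transcription of mitochondrial DNA. Of 11 regulators 7 were positive (median log2 difference 0.02), 1 was higher with an unadjusted p under 0.05 and 1 was lower. Tfam, Tfb1m, Tfb2m and Polrmt were all positive (0.08, 0.19, 0.02 and 0.10). The 4 negative ones, Gabpa, Yy1, Pprc1 and Ppargc1a, belong to the part that acts on nuclear genes. Their longest transcripts ran from 2419 to 6464 bases, and the list was not matched to the members for length. Esrra, the estrogen-related receptor alpha, ran from 239 to 309 CPM on galactose (median 273) and from 214 to 275 CPM on glucose (median 235), a difference of 0.20 ± 0.05 (edgeR p = 0.000653, adjusted p = 0.138), with all 12 galactose libraries above the glucose median. Gabpa, the DNA-binding chain of the factor NRF-2, ran from 34.5 to 46.5 CPM (median 40.3) and from 36.3 to 52.5 CPM (median 45.5), a difference of -0.14 ± 0.06 (edgeR p = 0.033, adjusted p = 0.308), with 1 of 12 galactose libraries above the glucose median.

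Several complex IV subunits have a partner gene used in muscle, testis or lung, and these partners show which forms the scrapings held. Cox7a1, the heart and muscle form beside Cox7a2, ran from 76.4 to 121 CPM on galactose (median 104) and from 69.2 to 98.9 CPM on glucose (median 76.6), a log2 difference of 0.31 ± 0.08 (edgeR p = 0.000628, adjusted p = 0.138). Its level per coding kilobase, 208 ± 31.0 on galactose, was below that of Cox7a2, 314 ± 42.0. The longest stretch both genes share in coding transcripts has 12 bases. Cox4i2 and Cox6a2 stayed at 1.17 CPM or less in every library, and Cox6b2, a testis form, had medians of 4.11 and 4.5 CPM. Cox8b had 0 reads in the galactose libraries and at most 2 in any glucose library, and Cox8c had 0 reads in all 23 libraries, where 0 reads allows up to 3, or 0.201 CPM.

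Markers of other cell types were checked beside these values. Striated muscle markers summed to 5.5 to 71.7 CPM on galactose and 4.4 to 81.5 CPM on glucose, nearly all from Acta1, with Myh1, Myh2 and Myh4 at a median of 0. Smooth muscle markers summed to 37.6 to 106 CPM and 35.3 to 156 CPM, with 0 of 6 genes higher on galactose. Adipocyte markers summed to 84.8 to 155 CPM and 92.4 to 155 CPM, nearly all from Cidec (medians 112 and 116 CPM). Car3 had a log2 difference of -2.40 ± 0.78 (edgeR p = 0.00488, adjusted p = 0.191), with 39.9 CPM in GLU42 replicate 1, which was also the highest glucose library for Adipoq (6.52 CPM) and Plin1 (3.73 CPM). Pancreatic acinar markers summed to 23.3 to 519 CPM and 22.4 to 64 CPM. GAL42 replicate 2 was the highest galactose library for each acinar marker detected, while Amy2a5 was at 0 in all libraries, and Cela1 differed by 1.09 ± 0.44 (edgeR p = 0.0191, adjusted p = 0.25). Without GAL42 replicate 2 the 35 members' log2 differences ran from 0.11 to 0.39, and without GLU42 replicate 1 from 0.10 to 0.37. Enterocyte markers were higher in the estimate for 7 of 8 genes, 2 of them with an unadjusted p under 0.05. T cell markers were higher for 5 of 5 genes, 3 with such a p, and summed to 40.7 to 93.1 CPM and 18.1 to 82.6 CPM. B and plasma cell markers were higher for 3 of 3 tested genes, 1 with such a p (Cd79a, 1.21 ± 0.51, edgeR p = 0.0254, adjusted p = 0.28), and summed to 49.2 to 232 CPM and 48.8 to 146 CPM. Red blood cell markers summed to 13.6 CPM or less, and cycling markers to 49.2 to 145 CPM and 57.8 to 165 CPM with 0 of 5 genes at such a p. The part of these cell types in the differences of the respiratory genes was not tested.

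The proximal promoters show letters that the rule for choosing the genes did not use. RefSeq promoter sequences of build GRCm38.p6, from 250 bases before to 50 bases after the start, were at hand for 28 of the 35 genes, with no entry for Uqcrc2, Uqcrb, Uqcrq, Cyc1, Cox4i1, Cox6c and Atp5a1. Both strands were searched for GCGCA followed, after any 1 base, by GCGC (nuclear respiratory factor NRF1, not related to the NRF-2 above), CCGGAAG (GABPA) and AAGATGGCG (YY1); the last letters of the GABPA string can also begin the YY1 string. Upstream stretches of 150 bases, ending at the base before the start, are printed for Cox6a1, the most abundant gene per length, for Atp5h, which like Cox6a1 has an NRF1 and a GABPA match, for Atp5k, whose printed NRF1 match reads on both strands, for Atp5e, the gene with the largest difference, and for Cox5b, the gene with the smallest p. Matches are in capitals; a GABPA match on the reverse strand reads CTTCCGG.
Cox6a1, chr5:115348959-115349108, minus strand: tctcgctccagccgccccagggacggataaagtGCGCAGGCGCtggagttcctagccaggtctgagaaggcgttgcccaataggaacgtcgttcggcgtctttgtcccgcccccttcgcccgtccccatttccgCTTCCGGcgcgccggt
Atp5h, chr11:115419920-115420069, minus strand: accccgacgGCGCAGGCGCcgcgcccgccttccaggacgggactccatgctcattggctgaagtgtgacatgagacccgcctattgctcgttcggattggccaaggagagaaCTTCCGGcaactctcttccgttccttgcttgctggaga
Atp5k, chr5:108434400-108434549, minus strand: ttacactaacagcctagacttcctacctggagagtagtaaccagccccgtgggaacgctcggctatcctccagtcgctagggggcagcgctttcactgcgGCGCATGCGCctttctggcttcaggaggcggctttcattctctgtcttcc
Atp5e, chr2:174464102-174464251, minus strand: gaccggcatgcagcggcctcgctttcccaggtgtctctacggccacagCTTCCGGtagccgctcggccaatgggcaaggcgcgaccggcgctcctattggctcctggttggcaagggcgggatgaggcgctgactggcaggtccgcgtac
Cox5b, chr1:36691337-36691486, plus strand: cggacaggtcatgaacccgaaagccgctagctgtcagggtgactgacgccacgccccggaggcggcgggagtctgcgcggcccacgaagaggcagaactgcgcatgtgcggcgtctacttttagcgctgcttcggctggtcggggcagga

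A gene with several listed starts was counted once if any of its promoters matched. In Cox6a1 the printed NRF1 match began 117 bases and the GABPA match 16 bases before the start, and a further NRF1 match, which reads on both strands, began 162 bases before it, outside the printed stretch. In Atp5h they began 141 and 38 bases before it, in Atp5k the NRF1 match began 50 bases before it (its GABPA match lies after the start), and in Atp5e the GABPA match 102 bases before it. The printed stretch of Cox5b has no match to these letters. Over the 28 promoters, 8 (28.6%) held the NRF1 letters against 5.19% of 27025 RefSeq genes, 10 (35.7%) held the GABPA letters against 9.93%, and 2 (7.14%) the YY1 letters against 1.64%. Any of the 3 was found in 16 of 28 (57.1%) against 15.1% of all genes, or 18.0% of the 22458 genes whose promoter GC content was at least 43.3%, that of the lowest member. These backgrounds include genes whether or not their RNA was found here, and they set only a lower bound on GC content. Expressed genes of matched GC content were not compared. By complex, NRF1 letters were in 6 of 14 promoters of ATP synthase, 1 of 5 of complex III and 1 of 8 of complex IV. GABPA letters were in 5, 2 and 3 of these, and YY1 letters in 2, 0 and 0. Differences between the complexes were not tested. Members with any match had a median log2 difference of 0.22 (n = 16) and those without one 0.22 as well (n = 12).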

How the data were processed

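Total RNA of 23 intestinal scrapings, 1 mouse each, was sequenced on DNBSEQ, per the labels' protocols. Each library has a table of raw counts deposited by the authors, made with STAR and HTSeq on GRCm39, per the submitters' processing notes. Strand setting, annotation and tool versions were not given in the sources used here. These tables hold 55416 gene rows and 5 rows without a gene, which took 13.5% of reads and were left out. Reads with several alignments were in one of those rows, so genes with close copies can be undercounted. Symbols were matched for 52083 rows by Ensembl identifier. No library pair within a diet agreed within sampling noise (lowest chi-square per degree of freedom 13.2 over 121 pairs).

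Genes passing edgeR's filterByExpr (13405) were scaled by TMM and fitted with diet as the sole term by edgeR 4.0.16 (quasi-likelihood, R 4.3.3), with Benjamini-Hochberg adjustment over all of them and 0.05 as the threshold. Values in CPM use the TMM-scaled library sizes. The method was tested on simulated counts drawn independently for each gene. That simulation held no shifts shared by many genes within a library, such as the members showed here. Lengths are those of the longest transcript in GENCODE M21, an annotation of an older build, so no coordinates were taken from it; 13384 tested genes had one. Members and lists were chosen with earlier results of these data known, and so carry no test as lists. Library values were given for the main subunits of each role fixed in the design, for the members of smallest and largest difference in each complex, for the 2 genes of smallest p in each context list and for tissue isoforms. Alternatives were other scalings and filters, DESeq2 1.42.0, limma 3.58.1 with and without quality weights, robust edgeR, the length slope and surrogate variables (sva 3.50.0) as covariates, and leaving out libraries. Like-length classes by coding length and without respiratory or ribosomal symbols were chosen after seeing the data. Library depth gives each member at least 674 reads per library, and intervals between libraries cover mouse-to-mouse and technical spread together.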

Additional observations from a re-analysis of the deposited data

Results flagged for a closer look

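GAL42 replicate 12, labelled female like all the others, held 225 reads over 4 Y-linked genes, which no comparison of the respiratory genes uses, against at most 1 read in each of the other 22 libraries. Its Xist count was 4 against 778 to 2351 in those libraries. Without this library edgeR called 0 members, and 0.0% of all genes were called higher. The median log2 differences were then 0.22 for complex III, 0.24 for complex IV and 0.22 for ATP synthase.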

How the results depend on the processing

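No member changed direction under the other scalings, filters and count tests or when any library was left out. The genes called between the diets numbered 0 in the chosen fit, 132 by DESeq2, 167 with quality weights in limma-voom, 3 with surrogate variables and 321 without GAL42 replicates 7 and 12. Members called were 0, then 10, 12, 0 and 22 in the same order. Leaving out 1 library gave 0 to 219 genes and 0 to 18 members called, above 0 only without GAL42 replicate 7. Members higher at an unadjusted p under 0.05 numbered 32, and 28 (without GAL42 replicate 3) to 34 (without GAL42 replicate 7) in the same series. They numbered 1 with the length slope and 9 with surrogate variables. Of all genes, 8.63% were higher at that p in the chosen fit and 3.8% with the length slope. Such shares for the other fits are not given here, so their counts cannot be set against all genes. Median log2 differences ran from 0.18 to 0.25 for complex III, 0.21 to 0.26 for complex IV and 0.19 to 0.25 for ATP synthase when 1 library was left out. With surrogate variables the medians were 0.0534, 0.0949 and 0.0417 for complex III, complex IV and ATP synthase, and with the length slope 0.0655, 0.0842 and 0.0632. With the length slope, Cox8a (-0.0079), Atp5g1 (-0.0062) and Atp5g2 (-0.1039) turned negative, and with surrogate variables Cycs (-0.0053), Cox8a (-0.0294) and Atp5g2 (-0.041); the cause was not tested. No paired analysis was possible because each mouse has its own number in the labels and none is shared between the diets. Each member had at least 674 reads in every library, so counting error is small beside the spread between libraries.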
